A study of Mus musculus with 61 samples.

Results

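Recovery of the mouse quadriceps between day 2 and day 7 after exercise was described by comparing 3 whole-muscle RNA libraries of day 7 with 3 of day 2, 6 of the 61 libraries of the series. The labels give the genotype of all as C57BL/6J, a wild-type strain, and list no Foxp3 allele, toxin or antibody for them. The mice had been exercised acutely. The labels name neither the kind nor the length of the exercise, nor the age or sex of these mice. Mice 8, 9 and 10 gave the day 7 libraries and mice 13, 14 and 15 those of day 2. No mouse was sampled on both days. Sedentary quadriceps (mice 5, 6 and 7) and quadriceps of day 1 (mice 16, 17 and 19) served for the spread and for levels, with no test against them. The tibialis anterior of the same 12 numbers was the muscle compared with it. The numbers are read here as those of single animals, which the labels do not state, so p-values measure the spread between these libraries.

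Muscle that has been strained first turns on genes that sense stretch at the Z-disc, the anchor of the thin filaments, and chaperones that keep damaged filament proteins soluble. Phagocytes clear debris, and satellite cells, the stem cells of muscle, divide and fuse with damaged fibres. New or repaired fibre segments pass through a stage in which they make embryonic and perinatal myosins before adult ones, while collagen and other matrix proteins are laid down around them.

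The 6 libraries held 7073564 to 8475429 counts, and the 12 quadriceps libraries 6898566 to 8863788. Levels are given in CPM, the counts scaled to the library's total. A count of 0 allows up to 3 counts, 0.339 to 0.435 CPM in these libraries, as far as counting error goes. Mitochondrially encoded genes took 4.13 to 4.71% of the counts at day 2 and 4.45 to 5.15% at day 7. The tissue was skeletal muscle by its markers. Summed levels of 14 fibre genes such as Acta1 and Ckm were 297800 to 306900 CPM at day 2 and 293400 to 307600 CPM at day 7. No 2 libraries of a group were copies of each other, as their counts differed by 7.17 to 11.7 times the sampling noise (chi-square per degree of freedom).

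Few genes separated the days. Of 13062 genes tested with edgeR's quasi-likelihood test, 8 were higher and 5 lower at day 7 at a Benjamini-Hochberg adjusted p under 0.05, together 0.0995% of those tested (0.0612% higher and 0.0383% lower). At an unadjusted p under 0.05 there were 1027 of the 13062 genes, where 653 would pass if no gene differed. Counts of list members at that threshold or by DESeq2, given below, are to be read beside the totals over all genes. DESeq2 called 39 higher and 34 lower, among them all 13. The median log2 fold change over all genes was 0.0018. The 5 that fell were Cryab, Csrp3, Mustn1, Ankrd1 and the uncharacterised 2310022A10Rik. The 8 that rose were Myh3, Uchl1, Cilp, H19, Tpm2 and 3 predicted gene models, Gm10800, Gm10801 and Gm21738. In whole tissue, a change in the number of cells of a type and a change in RNA per cell cannot be told apart.

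**Figure D1:**
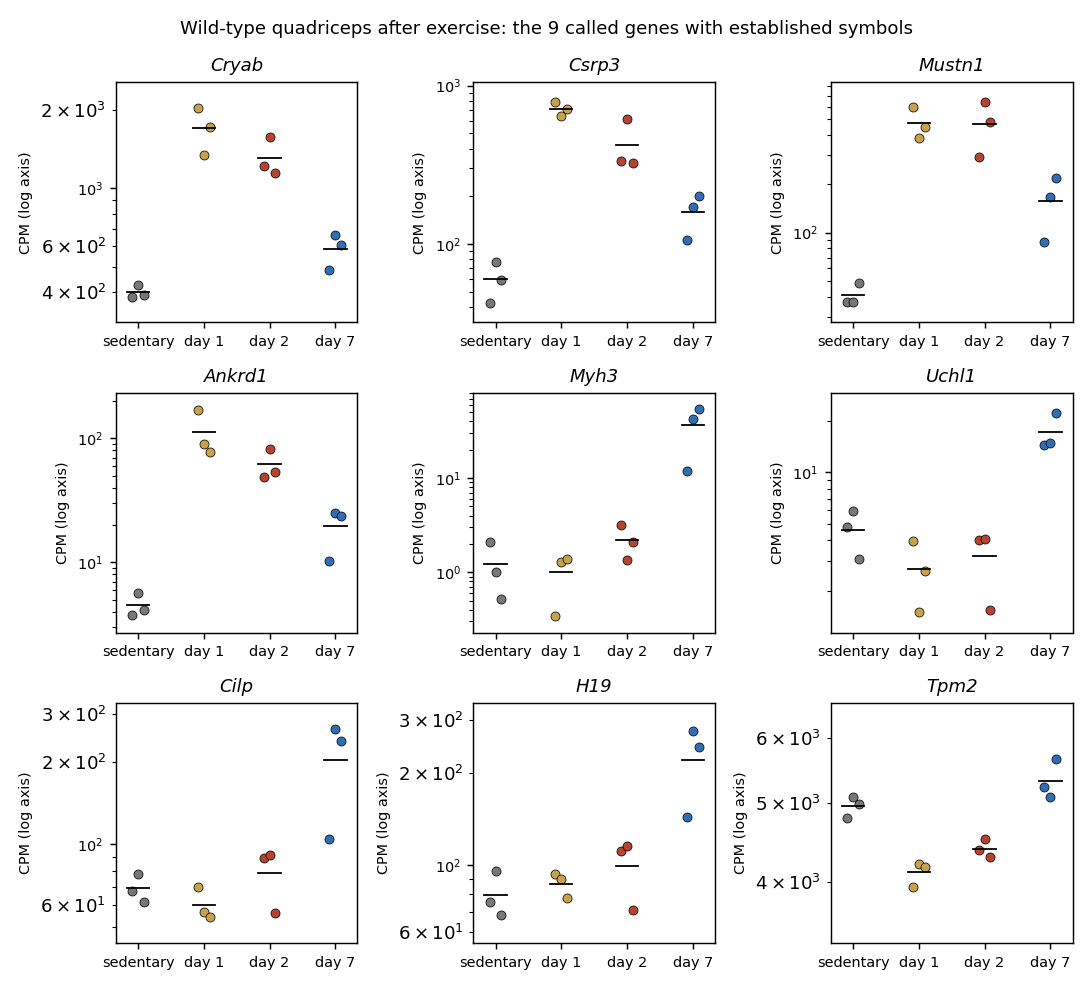
Levels in CPM (log axis, each panel with its own range) of the 9 called genes with established symbols in quadriceps of sedentary mice and at day 1, day 2 and day 7. Points are single mice and bars are means of 3. Cryab, Csrp3, Mustn1 and Ankrd1 were lower in each day 7 mouse than in each day 2 mouse and above each sedentary mouse, whereas Myh3, Uchl1, Cilp, H19 and Tpm2 were higher in each day 7 mouse than in each day 2 mouse.

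The 3 largest falls among the called genes were of genes tied to strain and repair. Ankrd1 encodes a titin-bound ankyrin repeat protein that carries signals of stretch from the sarcomere to the nucleus (chr19:36111961-36120099, minus strand of GRCm38). Its levels were 48.7, 82.4 and 53.7 CPM in the day 2 mice and 10.2, 25.2 and 23.8 CPM in the day 7 mice. The groups did not overlap, and sedentary mice were at 3.78 to 5.65 CPM. The fitted difference was -1.65 ± 0.30 (log2 ± SE, n = 3 and 3, adjusted p = 0.0422), a 3.13-fold fall. Ankrd1 kept its call in 6 of 12 alternative analyses. It lost it without mouse 8, 9, 10, 14 or 15 (log2 -1.85 to -1.34, adjusted p = 0.0915 to 0.162) and with only the 2 groups in the fit (adjusted p = 0.119).

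Csrp3 encodes the muscle LIM protein, which binds the Z-disc and the actin cytoskeleton (chr7:48830398-48848033, minus strand). It stood at 336, 612 and 323 CPM at day 2 and at 106, 172 and 200 CPM at day 7. All 3 mice of day 7 were below all 3 of day 2, and mouse 14 was well above the other mice of its day. Csrp3 fell by 1.41 ± 0.23 on the log2 scale (2.65-fold, adjusted p = 0.0243). The call was lost without mouse 8, 9 or 14 (log2 -1.45 to -1.06, adjusted p = 0.0693 to 0.116) and with only the 2 groups in the fit (0.119).

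Mustn1 encodes a small nuclear protein made in muscle and bone as they develop and regenerate (chr14:30879200-30881610, plus strand). Its levels went from 294, 638 and 479 CPM to 87.2, 166 and 217 CPM. Mouse 8 was the lowest mouse of day 7 for Mustn1, as it was for Ankrd1 and Csrp3. The fall was 1.58 ± 0.27 on the log2 scale (3-fold, adjusted p = 0.0243). Without mouse 8, 9, 14 or 15 the call was lost (log2 -1.62 to -1.30, adjusted p = 0.0512 to 0.132), as it was with only the 2 groups in the fit (0.157).

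For these 3 genes each day 7 mouse was still above each sedentary mouse. Taking the day 2 mean minus the sedentary mean as the whole excess, Ankrd1 kept 26.6% of it at day 7 (9.88 to 36.1% over the 3 mice). Csrp3 kept 27.4% (12.8 to 38.7%) and Mustn1 26.9% (10.8 to 40.9%).

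Bases before the transcription start of these 3 genes, which fell together, are shown as RefSeq gives them on build GRCm38.p6, 200 bases each, read 5′ to 3′ on the strand of the gene. Of the 9 called genes with established symbols, 7 have an entry in that table. RefSeq starts can differ from the GENCODE gene coordinates given above. The Ankrd1 stretch lies inside the gene span given for it, and the Mustn1 stretch runs into its span. Distances are counted from the RefSeq start. The 250 bases before the start were searched on both strands. The letters sought were those of the MCAT site of TEAD factors (CATTCC), the E-box of myogenic factors (CANNTG) and a core of the heat shock element (GAANNTTC). Those of the AP-1 site (TGANTCA) and the TATA box (TATAAA) were sought too. Capitals mark matches. In the same window, 12.6% of 32851 mouse promoters held the MCAT letters, 66.2% an E-box, 6.69% the heat shock core, 6.75% the AP-1 letters and 12.4% the TATA letters.
Ankrd1, chr19:36119845-36120044, minus strand: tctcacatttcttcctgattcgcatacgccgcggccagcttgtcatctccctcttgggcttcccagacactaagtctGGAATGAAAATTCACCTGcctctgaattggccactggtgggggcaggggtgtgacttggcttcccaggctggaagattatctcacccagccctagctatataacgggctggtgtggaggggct
Csrp3, chr7:48848052-48848251, minus strand: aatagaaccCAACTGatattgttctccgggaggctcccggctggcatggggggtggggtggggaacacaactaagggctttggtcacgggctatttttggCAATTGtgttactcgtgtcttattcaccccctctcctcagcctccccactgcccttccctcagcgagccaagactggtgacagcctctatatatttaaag
Mustn1, chr14:30879057-30879256, plus strand: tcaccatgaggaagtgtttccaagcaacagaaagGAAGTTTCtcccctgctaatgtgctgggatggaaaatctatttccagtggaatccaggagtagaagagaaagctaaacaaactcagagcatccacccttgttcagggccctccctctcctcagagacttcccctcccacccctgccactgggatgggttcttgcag
In Ankrd1 the run of capitals joined 3 matches that share their end bases: the reverse of the MCAT site (GGAATG) at 123 bases before the start, the heat shock core (GAAAATTC) at 118 and an E-box (CACCTG) at 111. A further MCAT match of Ankrd1 lay before the stretch shown, at 210. The Csrp3 stretch held E-boxes at 191 and 100 bases before the start, with others before it at 239 and 214. Csrp3 has 2 entries in the table, and its other one, not shown, held E-boxes at 205, 189, 165 and 16 and the heat shock core (GAAGCTTC) at 10, counted from its own start. Mustn1 held the heat shock core (GAAGTTTC) at 166. The letters were not particular to genes that fell. Among called genes that rose, Uchl1 held the heat shock core at 162. Cilp held E-boxes at 242, 97 and 39, and Tpm2 held one at 227. Each is a match of letters, not a shown binding site.

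The wider list of strain sensors and Z-disc repair proteins held 25 genes, all tested. Of these, 20 were lower and 5 higher at day 7, and 3 were called, all lower. Day 7 lay wholly below day 2 for 9 of 25 genes, against 6.91% of all genes, and wholly above it for 1, against 6.11%. The median was -0.16, beside 0.0018 over all genes. Flnc, the filamin that patches torn myofibrils, went from 685, 1081 and 767 CPM to 508, 567 and 608 CPM (log2 -0.58 ± 0.16, adjusted p = 0.255). Fhl1, a LIM protein of the titin spring, was at 1924, 2611 and 1827 CPM and then at 1149, 1652 and 1752 CPM (log2 -0.48 ± 0.13, adjusted p = 0.285). Xirp1, an actin-binding protein of injured fibre segments, overlapped between the days, at 255 to 449 and 210 to 297 CPM (log2 -0.37 ± 0.26). Myoz2, a calsarcin of slow fibres, was the list's member with the highest value (log2 0.85 ± 0.17, adjusted p = 0.0557). DESeq2 called Ankrd23 lower and Myoz2 higher beside the 3.

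Cryab gave the call that held most widely. It encodes alpha-B crystallin, a small heat shock protein that shields desmin and titin (chr9:50751325-50756636, plus strand). Its levels were 1219, 1575 and 1148 CPM at day 2 and 485, 662 and 607 CPM at day 7. The day 7 mice lay close above the sedentary range of 381 to 425 CPM. The fall was 1.16 ± 0.13 on the log2 scale (2.24-fold, adjusted p = 0.00126), and 20.3% of the day 2 excess over sedentary muscle remained (9.4 to 28.8% over the mice). Cryab was called in 12 of 12 alternatives, with adjusted p of at most 0.00781.

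Of 33 heat shock and co-chaperone genes, all tested, 23 were lower and 10 higher, with Cryab the 1 call and a median of -0.11. Groups did not overlap for 8 lower and 1 higher members, against 6.91% and 6.11% of all genes. Hspb7, a small heat shock protein of the sarcomere, was at 489, 809 and 518 CPM and then 247, 397 and 460 CPM (log2 -0.72 ± 0.20, adjusted p = 0.293). Hspb1 went from 301, 364 and 215 CPM to 153, 209 and 194 CPM (log2 -0.66 ± 0.22, adjusted p = 0.428). Its lowest day 2 mouse was just above its highest day 7 mouse. Means of Hspb7 and Hspb1 kept 46.7% and 35.4% of their day 2 excess. Dnaja4, a co-chaperone of Hsp70, was at 12.6, 18.8 and 8.03 CPM and then 4.71, 7.49 and 5.42 CPM (log2 -1.16 ± 0.35, adjusted p = 0.329). The inducible Hsp70 genes Hspa1a and Hspa1b had wide errors, 0.31 ± 0.69 and -0.11 ± 1.01.

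**Figure D2:**
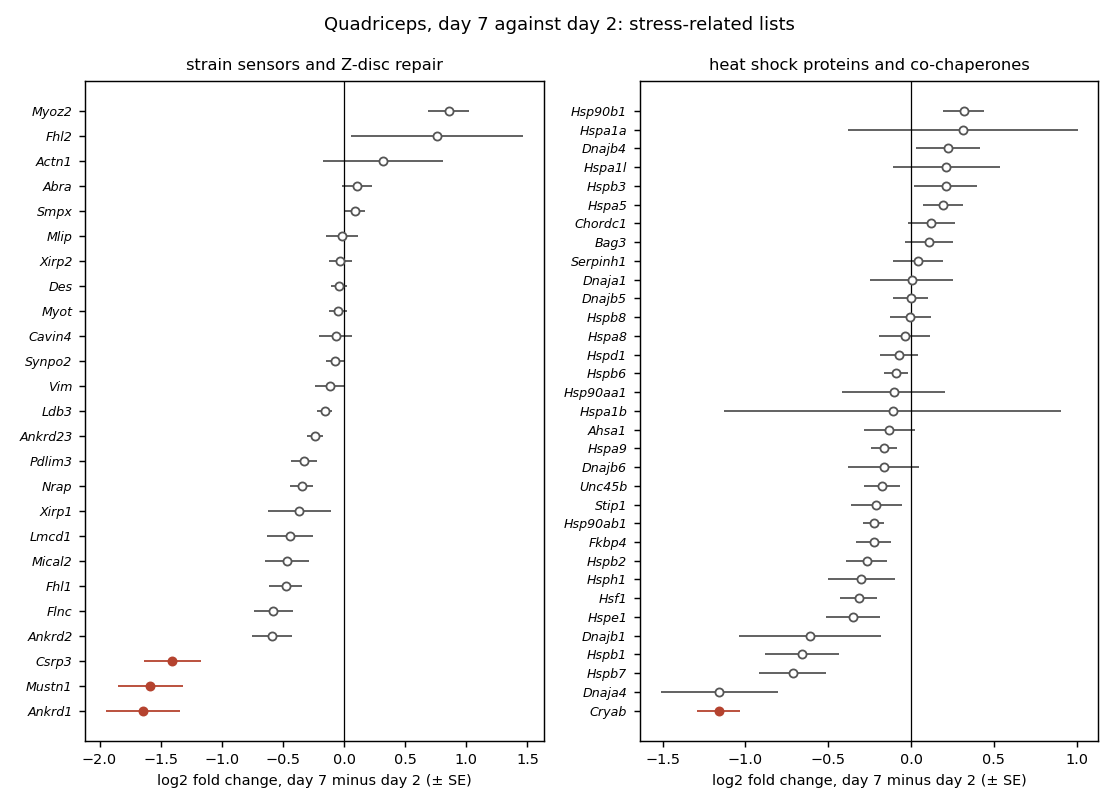
Fitted log2 fold change, day 7 minus day 2, with SE bars, for each tested gene of the strain sensor list (left, 25 genes) and the heat shock list (right, 33 genes). Red filled points were called and open points were not. Most points lie left of 0, with Ankrd1, Mustn1, Csrp3 and Cryab farthest from 0 relative to their errors.

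Among immediate early genes, 21 of the 27 listed passed the filter on low counts, with 0 called by edgeR and Dusp1 called higher by DESeq2. At an unadjusted p under 0.05, 2 were higher and 3 lower, beside 1027 of 13062 over all genes. Atf3, a stress-induced transcription factor, was at 47.3, 47.9 and 18.4 CPM at day 2 and 19.7, 15.8 and 13.7 CPM at day 7 (log2 -1.19 ± 0.41, adjusted p = 0.424). Mouse 15 of day 2 was lower than mouse 8 of day 7, so the days overlapped. Dusp1, a phosphatase that switches off stress kinases, was higher in each day 7 mouse, at 130 to 143 CPM against 89.2 to 113 CPM (log2 0.47 ± 0.12, adjusted p = 0.253).

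Embryonic myosin gave the largest rise among the called genes. Myh3 encodes the first myosin heavy chain that new fibres make (chr11:67078300-67102291, plus strand). It stood at 3.19, 1.35 and 2.07 CPM at day 2 and at 11.95, 42.1 and 54.7 CPM at day 7. Mouse 8 was far below the other mice of day 7 and still above every quadriceps library of sedentary, day 1 and day 2 mice. The rise was 4.02 ± 0.54 on the log2 scale (16.2-fold, adjusted p = 0.0049). Myh3 kept its call in 11 of 12 alternatives and lost it without mouse 14 (log2 3.75, adjusted p = 0.0507). Its 200 bases before the start hold an E-box at 191 bases and a TATA box at 29 bases before the start, shown in capitals.
Myh3, chr11:67078100-67078299, plus strand: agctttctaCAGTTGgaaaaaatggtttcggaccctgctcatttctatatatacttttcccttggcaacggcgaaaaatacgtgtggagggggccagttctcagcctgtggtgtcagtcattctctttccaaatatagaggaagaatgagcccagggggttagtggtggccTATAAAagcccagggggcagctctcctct

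Most of the other genes of immature fibres were also higher by value at day 7. Of 22 developmental genes 19 were tested. At day 7, 16 were higher and 3 lower, with Myh3 and H19 called and a median of 0.82. Groups did not overlap for 9 higher and 1 lower members, against 6.11% and 6.91% of all genes. Myl4, the embryonic essential light chain, was at 8.38, 4.18 and 3.24 CPM and then 9.03, 48.9 and 45.3 CPM (log2 2.69 ± 0.53, adjusted p = 0.0557). It was called without mouse 8 (3.13, adjusted p = 0.00322) or mouse 13 (3.21, 0.0346) and by DESeq2 (0.0113). Mouse 8 stood just above the day 2 range for Myl4. Myh8, the perinatal myosin, was at 2.24, 4.79 and 1.3 CPM and then 4.96, 26.4 and 17.3 CPM (log2 2.53 ± 0.59, adjusted p = 0.145). Without mouse 8, Myh8 passed (log2 2.96, adjusted p = 0.0454), and DESeq2 called it too (adjusted p = 0.00608). Sln, sarcolipin, which restrains the calcium pump, followed at 7.12 to 7.86 CPM and then 8.39, 25.7 and 23.9 CPM (log2 1.37 ± 0.38, adjusted p = 0.279). Actc1, the cardiac actin of fetal muscle, was at 804, 622 and 673 CPM and then 1193, 1302 and 1824 CPM (log2 1.04 ± 0.25, adjusted p = 0.179), and it was called with only the 2 groups in the fit (0.0285). One sedentary mouse reached 912 CPM of Actc1.

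Mybph, a thick-filament protein of remodelling fibres that stands on the same list, moved the other way. It was at 273, 255 and 337 CPM at day 2 and 127, 151 and 216 CPM at day 7 (log2 -0.81 ± 0.17, adjusted p = 0.0712). The days did not overlap, and the day 7 mice remained above the sedentary range of 77.8 to 100.4 CPM. Mybph was called without mouse 10 (log2 -1.04, adjusted p = 0.0125) and by DESeq2 (adjusted p = 0.00149).

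Per length, developmental myosins stayed a trace of the myosin RNA. Myh3 had 0.223 to 0.526 CPM per kilobase of merged exon at day 2 and 1.97 to 9.03 at day 7. Adult Myh4, the fast IIb myosin, had 5755 to 7028 at day 2 and 5795 to 7007 at day 7 on the same scale. Myh3 and Myh8 together made 0.00901, 0.00903 and 0.00685% of the per-length level of the 6 myosin heavy chains summed (Myh1, Myh2, Myh3, Myh4, Myh7 and Myh8) in mice 13, 14 and 15. They made 0.0303% in mouse 8, 0.133% in mouse 9 and 0.142% in mouse 10. Sedentary mice had 0.00186 to 0.0061%.

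**Figure D3:**
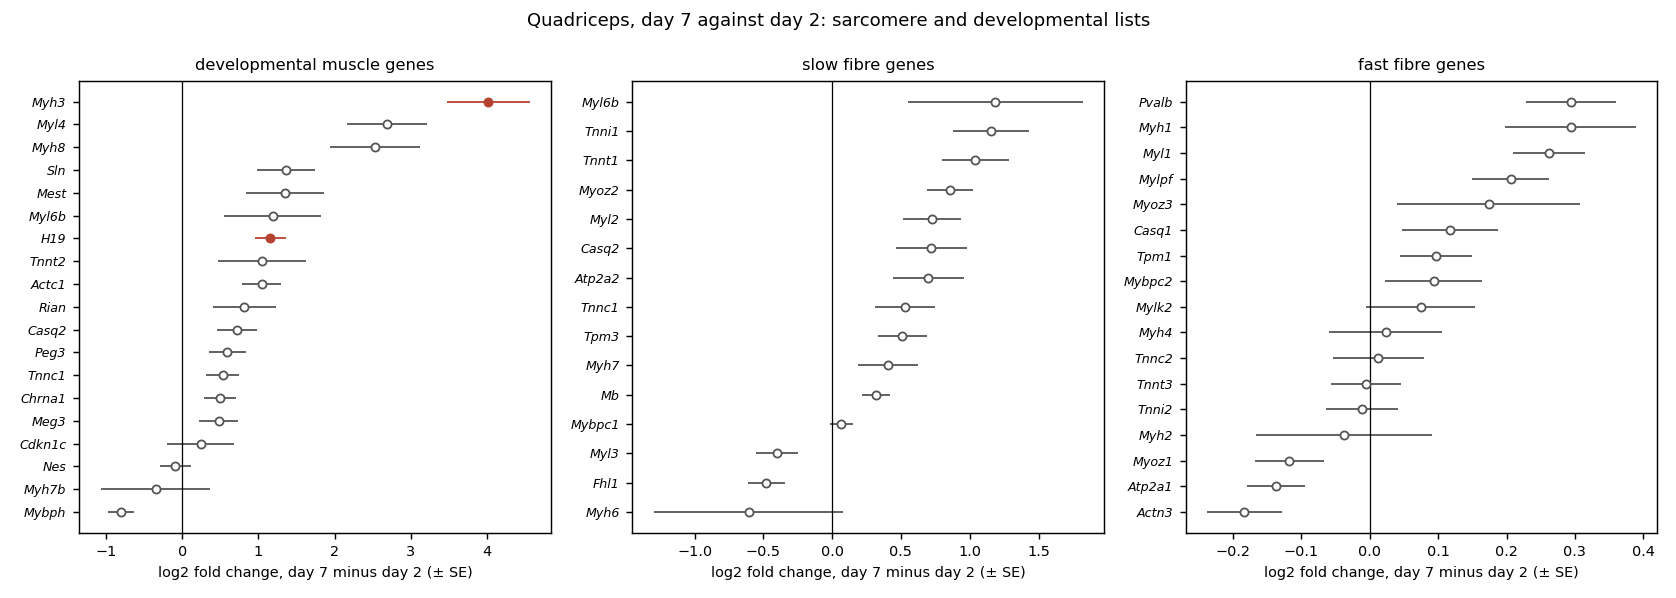
Fitted log2 fold change, day 7 minus day 2, with SE bars, for developmental (left, 19 genes), slow fibre (middle, 15) and fast fibre genes (right, 17), each panel with its own axis range. Red filled points were called. Myh3 stands at 4.02 and H19 at 1.16, most slow fibre genes lie right of 0, and all fast fibre genes lie within 0.3 of 0.

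H19 is an imprinted noncoding RNA of fetal and regenerating muscle (chr7:142575529-142578143, minus strand). Its levels were 111, 115 and 71.2 CPM at day 2 and 143, 277 and 245 CPM at day 7. Each day 7 mouse was above each day 2 and sedentary mouse. The rise was 1.16 ± 0.20 (log2, 2.23-fold, adjusted p = 0.0274). It was not called without mouse 9, 10, 14 or 15 (log2 0.97 to 1.26, adjusted p = 0.0862 to 0.196) or with only the 2 groups in the fit (0.162). Igf2, the imprinted growth factor gene that neighbours it, was too low to test, at 0.369 to 0.906 CPM and then 0.636 to 2.4 CPM.

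Uchl1 encodes a ubiquitin hydrolase best known from neurons (chr5:66676091-66687234, plus strand). It rose from 4.01, 4.05 and 1.55 CPM to 14.5, 14.8 and 22.3 CPM (log2 2.42 ± 0.41, 5.35-fold, adjusted p = 0.0271). All 3 day 7 mice, mouse 8 included, were above the sedentary range of 3.11 to 5.94 CPM. The call was lost without mouse 9, 10, 14 or 15 (log2 2.09 to 2.60, adjusted p = 0.0894 to 0.131) and with only the 2 groups in the fit (0.0508). Markers of nerve and Schwann cells summed to 122 to 140 CPM at day 2 and 125 to 133 CPM at day 7, with 7 of 12 tested members higher and 0 called by edgeR, by DESeq2 or at an unadjusted p under 0.05.

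Tpm2 encodes beta-tropomyosin, a thin filament protein (chr4:43514711-43523765, minus strand). It rose by a small amount, from 4375, 4516 and 4300 CPM to 5230, 5081 and 5649 CPM (log2 0.28 ± 0.05, 1.22-fold, adjusted p = 0.0422). Day 2 was below the sedentary range of 4796 to 5087 CPM and day 7 lay near or above its top. Tpm2 lost its call without mouse 8, 10, 14 or 15 (log2 0.25 to 0.29, adjusted p = 0.102 to 0.226), with only the 2 groups in the fit (0.193) and after correction for length and GC (0.0944).

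Most genes of slow fibres stood higher by value at day 7, but their summed level did not. Summed over the 16 listed, it was 5267 to 6785 CPM at day 2 and 4807 to 6781 CPM at day 7. Of 16 listed 15 were tested, 12 higher and 3 lower at day 7, with a median of 0.53. The list shares members with others, among them Tnnc1, Casq2 and Myl6b with the developmental list and Myoz2 with the strain sensor list. None was called by edgeR, and DESeq2 called Myoz2 and Tnnt1 higher. At an unadjusted p under 0.05, 9 were higher and 2 lower, beside 1027 of 13062 over all genes. Groups did not overlap for 6 higher and 1 lower members, beside the same 6.11% and 6.91%. Myoz2 was at 40.2, 55.3 and 40.1 CPM and then 62.1, 84.5 and 98.0 CPM, and sedentary mice had 52 to 76 CPM. Slow troponin T (Tnnt1) was at 33.1, 40.7 and 42.6 CPM and then 55.1, 76.8 and 107 CPM (log2 1.04 ± 0.25, adjusted p = 0.151). Slow troponin I (Tnni1) was at 37 to 46.1 CPM and then 50.9, 102 and 132 CPM (log2 1.16 ± 0.28, adjusted p = 0.156). Without mouse 8, Tnni1 (1.45) and Myoz2 (1.00) were called (adjusted p = 0.0242 for each). For both, mouse 8 was lowest and mouse 10 highest at day 7. The day 7 mice overlapped the sedentary ranges of 43 to 93.1 CPM for Tnnt1 and 37.6 to 82.1 CPM for Tnni1. Slow myosin Myh7 overlapped between the days, at 133 to 171 and 135 to 275 CPM. Myl3, of the same list, was lower by value (log2 -0.40 ± 0.15, adjusted p = 0.492).

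Fast fibre genes moved little, with 11 of 17 higher, a median of 0.07 and 0 called by edgeR. At an unadjusted p under 0.05, 4 were higher and 3 lower, and DESeq2 called Myl1 and Pvalb higher. The fast essential light chain Myl1 was at 12450, 11560 and 11490 CPM and then 14390, 13880 and 14060 CPM (log2 0.26 ± 0.05, adjusted p = 0.0648). Parvalbumin (Pvalb), the calcium buffer of fast fibres, was at 3744 to 3830 CPM and then 4398 to 4768 CPM (log2 0.29 ± 0.07, adjusted p = 0.12). For each of these, day 7 lay above day 2 in every mouse, and Myl1 was called without mouse 13 (0.32, adjusted p = 0.0173). The calcium pump gene Atp2a1 had the reverse direction (log2 -0.14 ± 0.04, adjusted p = 0.332). Mrln, the micropeptide myoregulin that inhibits that pump, was at 29.4, 25.9 and 24.7 CPM and then 50.2, 46.8 and 44.8 CPM (log2 0.83 ± 0.16, adjusted p = 0.0552). Its day 7 mice were below the sedentary range of 53.5 to 66.4 CPM. Mrln was called with a minimum count of 20 (adjusted p = 0.0428), without mouse 13 (0.039) and by DESeq2 (0.000909).

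The matrix gave 1 call. Cilp encodes a secreted protein of cartilage and fibrous matrix that binds TGF-beta (chr9:65265180-65280605, plus strand). It went from 88.8, 91.0 and 56.1 CPM to 105, 264 and 239 CPM. Mouse 8 stood just above the top of day 2 and the other mice far above it. The rise was 1.36 ± 0.24 (log2, 2.57-fold, adjusted p = 0.0369). It lost its call without mouse 9, 10, 14 or 15 (log2 1.13 to 1.46, adjusted p = 0.0902 to 0.221) and with only the 2 groups in the fit (0.192). Without mouse 8 it was called.

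Collagen chains showed no call by edgeR among 26 tested, with 16 higher and 10 lower, a median of 0.06, and 6 higher at an unadjusted p under 0.05. Col4a1, a chain of the basement membrane, was called by DESeq2. It was at 76.6, 70.8 and 73.7 CPM and then 108, 127 and 101 CPM (log2 0.61 ± 0.13, adjusted p = 0.067), and sedentary mice had 91.9 to 96.3 CPM. The fibrillar chains Col1a1 (224 to 310 CPM, then 262 to 369) and Col3a1 (337 to 539 CPM, then 401 to 661) overlapped between the days. Their values were 0.40 ± 0.16 (adjusted p = 0.541) and 0.42 ± 0.18 (0.571). Col12a1, which binds collagen fibrils to other matrix, was at 10.3, 14.9 and 4.4 CPM and then 17.6, 21.1 and 22.2 CPM (log2 1.04 ± 0.35, adjusted p = 0.41).

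Of 42 matricellular genes and matrix enzymes 39 were tested, 21 higher and 18 lower, with a median of 0.09. Periostin (Postn) varied widely within each day, at 33.3, 64.9 and 17.5 CPM and then 21.6, 58.8 and 74.1 CPM (log2 0.42 ± 0.44, adjusted p = 0.904). Aebp1, a secreted protein that aids collagen assembly, was at 79.2, 123 and 101 CPM and then 61.5, 67.7 and 66.3 CPM (log2 -0.62 ± 0.13, adjusted p = 0.0874). It was called lower without mouse 13 (adjusted p = 0.0173) and by DESeq2 (0.00422), and sedentary mice had 113 to 126 CPM. Tenascin C (Tnc) was at 29.1, 35.1 and 11.9 CPM and then 7.88, 18.1 and 13.6 CPM (log2 -0.95 ± 0.37, adjusted p = 0.497). Markers of fibro-adipogenic progenitors, a stromal cell type that secretes matrix, summed to 1695 to 1954 CPM at day 2 and 1445 to 1836 CPM at day 7. Of 16 tested, 10 were lower and 6 higher, with a median of -0.03. Much of that sum was 1 gene, Gsn, with 8330, 9049 and 8659 counts at day 2 and 6282, 6014 and 7382 at day 7 (log2 -0.29 ± 0.10). Tendon markers summed to 345 to 469 and 384 to 590 CPM. Their part in the matrix values was not tested.

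All 13 mitochondrially encoded mRNAs were higher at day 7 by fitted value, with a median of 0.26, beside 50.3% of all genes higher and 49.7% lower. None was called by edgeR, 7 passed an unadjusted p under 0.05, and DESeq2 called mt-Nd6. Days did not overlap for 5, against 6.11% of all genes with day 7 higher. mt-Nd6, the complex I subunit on the light strand, was at 162, 127 and 150 CPM and then 215, 212 and 199 CPM (log2 0.52 ± 0.12, adjusted p = 0.115), and it was called without mouse 13 (0.61, adjusted p = 0.0484). Cytochrome b (mt-Cytb) was at 6705, 5990 and 6237 CPM and then 7609, 7716 and 6733 CPM (log2 0.23 ± 0.07, adjusted p = 0.293). Both reached the sedentary ranges of 172 to 222 and 6907 to 7426 CPM, except mt-Cytb in mouse 10. These RNAs come from 1 genome and 1 library each, so they are not separate pieces of evidence.

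Nuclear genes of the respiratory chain had smaller medians. Of 37 complex I genes 26 were higher (median 0.06), and for complexes II to V 27 of 41 were (median 0.07). edgeR and DESeq2 called 0 in both, with 3 higher in each at an unadjusted p under 0.05, beside 1027 of 13062 over all genes. Days did not overlap for 12 higher and 4 lower complex I genes and for 11 higher and 3 lower genes of complexes II to V, against 6.11% and 6.91% of all genes. Ppargc1a, the coactivator that drives mitochondrial genes, overlapped, at 44.5 to 51.8 and 35.9 to 49.1 CPM (log2 -0.20 ± 0.20). Pink1, the kinase that marks damaged mitochondria, had a log2 difference of -0.56 ± 0.17 (adjusted p = 0.336), and it was called without mouse 13 (adjusted p = 0.0333).

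Fatty acid uptake and oxidation genes were higher in 19 of 30 members, with a median of 0.07, 0 called by edgeR and 7 higher at an unadjusted p under 0.05. Fabp3, the fatty acid carrier of muscle, was at 321, 284 and 323 CPM and then 374, 396 and 435 CPM (log2 0.39 ± 0.09, adjusted p = 0.137). Cd36, the fatty acid translocase, was at 240, 226 and 209 CPM and then 272, 269 and 310 CPM (log2 0.34 ± 0.09, adjusted p = 0.215). DESeq2 called both. Pdk4, the kinase that turns pyruvate away from oxidation, was at 150, 143 and 84.8 CPM and then 191, 326 and 250 CPM (log2 1.02 ± 0.23, adjusted p = 0.133). Glycolysis and glycogen genes were split, with 14 higher and 16 lower of 30 and a median of -0.0011.

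Macrophage markers leaned lower without a call by edgeR. Of 27 listed 22 were tested, 8 higher and 14 lower, with a median of -0.17 and 2 lower at an unadjusted p under 0.05. Cd68, a lysosomal protein of phagocytes, was at 14.4, 21.6 and 16.7 CPM and then 4.58, 10.9 and 8.06 CPM (log2 -1.16 ± 0.34, adjusted p = 0.316). Day 7 was below day 2 in every mouse and 21.3% of the day 2 excess over sedentary muscle remained. Csf1r, the receptor for the macrophage growth factor, was at 23.7, 32.9 and 27.2 CPM and then 14.4, 16 and 14.3 CPM (log2 -0.90 ± 0.22, adjusted p = 0.199), and DESeq2 called it (0.0292). Unlike Cd68, each day 7 mouse was below the sedentary mean of Csf1r. The share of its day 2 excess was -99.4% (-109 to -82.6% over the mice). Other markers of the same cells overlapped. C1qa, a complement gene of resident macrophages, was at 13.1 to 17.7 and 10.8 to 17.2 CPM (log2 -0.16 ± 0.27), Lyz2 had a value of -0.17 ± 0.16 and Mrc1 one of 0.07 ± 0.32. Summed over the 27 markers, day 2 mice had 239 to 275 CPM, day 7 mice 174 to 274 CPM and sedentary mice 175 to 261 CPM. Of 17 complement genes 14 were lower, 3 of them at an unadjusted p under 0.05, and 0 were called by edgeR or DESeq2.

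Interferon-induced genes were higher in 31 of 34 tested members, with a median of 0.44. None was called by edgeR, 4 passed an unadjusted p under 0.05 and days did not overlap for 3, all higher, beside 6.11% of all genes. Errors were wide for many of them, as for the GTPase gene Igtp (log2 0.32 ± 0.25) and for Ifit1 (0.44 ± 0.49). Ifi27 was at 28.7, 23.5 and 22.0 CPM and then 34.2, 40.0 and 39.6 CPM (log2 0.62 ± 0.16, adjusted p = 0.236), above the sedentary range of 23.9 to 26.5 CPM, and DESeq2 called it (0.043). Bst2, which tethers budding virus, was at 4.84, 4.3 and 6.34 CPM and then 11.6, 10.2 and 9.11 CPM (log2 1.01 ± 0.30, adjusted p = 0.314), within 8.26 to 13.9 CPM of sedentary mice. Antigen presentation genes were higher in 13 of 21 members, with a median of 0.26 and 0 called by either tool. At an unadjusted p under 0.05, 2 were higher, beside 1027 of 13062 over all genes.

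The genes at the centre of the study's question were at the limit of detection here. Foxp3, which defines regulatory T cells, had 0 counts in the 3 day 2 mice and in mice 8 and 9, and 3 counts (0.396 CPM) in mouse 10. Ifng, the interferon-gamma gene, had 0 counts at day 2 and 2, 0 and 4 counts in mice 8, 9 and 10. T and NK cell markers summed to 12 to 21.3 CPM at day 2 and 15.4 to 18.5 CPM at day 7, with 9 of 19 at 0 in all mice of a day. Much of each sum was 1 member, Ikzf2, with 77, 123 and 60 counts at day 2 and 66, 85 and 90 at day 7. The sum is thus a poor measure of the other markers. A change in T cells could not be seen at this depth.

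Myogenic regulators gave 0 calls by edgeR among 22 tested, with 10 higher and 12 lower, a median of -0.05, and 4 higher and 3 lower at an unadjusted p under 0.05. Myog, the factor that commits myoblasts to fusion, was at 18.4, 18.1 and 9.06 CPM and then 9.28, 18.2 and 16.5 CPM (log2 -0.05 ± 0.31). Both days reached above the sedentary range of 4.67 to 7.84 CPM. Pax7, which marks satellite cells, was low, at 1.65 to 2.09 and 0.424 to 1.45 CPM (log2 -1.16 ± 0.85). Mymk, the membrane protein that fuses myoblasts, was at 0.826, 1.84 and 0 CPM and then 2.29, 7.49 and 4.89 CPM (log2 2.43 ± 1.06, adjusted p = 0.586). It had 0 to 0.145 CPM in sedentary mice. Mstn, the secreted brake on muscle growth, was called by DESeq2 (0.0282), at 46.9 to 59 and then 67.6 to 78.7 CPM (log2 0.53 ± 0.13, edgeR adjusted p = 0.199). The 11 satellite cell markers summed to 116 to 141 CPM and then 131 to 165 CPM.

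Cell cycle genes were lower in 13 of 21 tested members, with a median of -0.23 and 0 called by edgeR or DESeq2. At an unadjusted p under 0.05, 1 was higher and 1 lower, beside 1027 of 13062 over all genes. Mki67, the proliferation marker, was at 1.84 to 2.36 CPM and then 1.65, 0 and 2.24 CPM (log2 -0.63 ± 1.07). Cdkn1a, which encodes the cell cycle inhibitor p21, was at 12.6, 13.6 and 7.25 CPM and then 16.7, 22.8 and 22.9 CPM (log2 0.89 ± 0.24, adjusted p = 0.253). Sedentary mice had 20 to 20.8 CPM. The ubiquitin ligase Fbxo32, which drives fibre wasting, overlapped, at 73.4 to 147 and 109 to 139 CPM (log2 0.21 ± 0.36). Mettl21c, a muscle methyltransferase, was at 98.4, 79.2 and 70.2 CPM and then 174, 141 and 133 CPM (log2 0.87 ± 0.18, adjusted p = 0.0712), above the sedentary 104 to 106 CPM. It was called without mouse 13 (0.0346) and by DESeq2 (0.00149).

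Clock genes were lower in 15 of 20 members, with a median of -0.22, 0 called by either tool and 6 lower and 1 higher at an unadjusted p under 0.05. Per3 was at 33.3, 42 and 57.5 CPM and then 26.7, 21.9 and 26.9 CPM (log2 -0.80 ± 0.24, adjusted p = 0.324), near the sedentary 14.8 to 28.3 CPM. The repressors Per1 (-0.92 ± 0.38) and Per2 (-1.19 ± 0.44) were lower by value and their activator Arntl was higher (0.54 ± 0.22). The labels give no time of day for the dissections, so its part in these values was not tested.

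**Figure D4:**
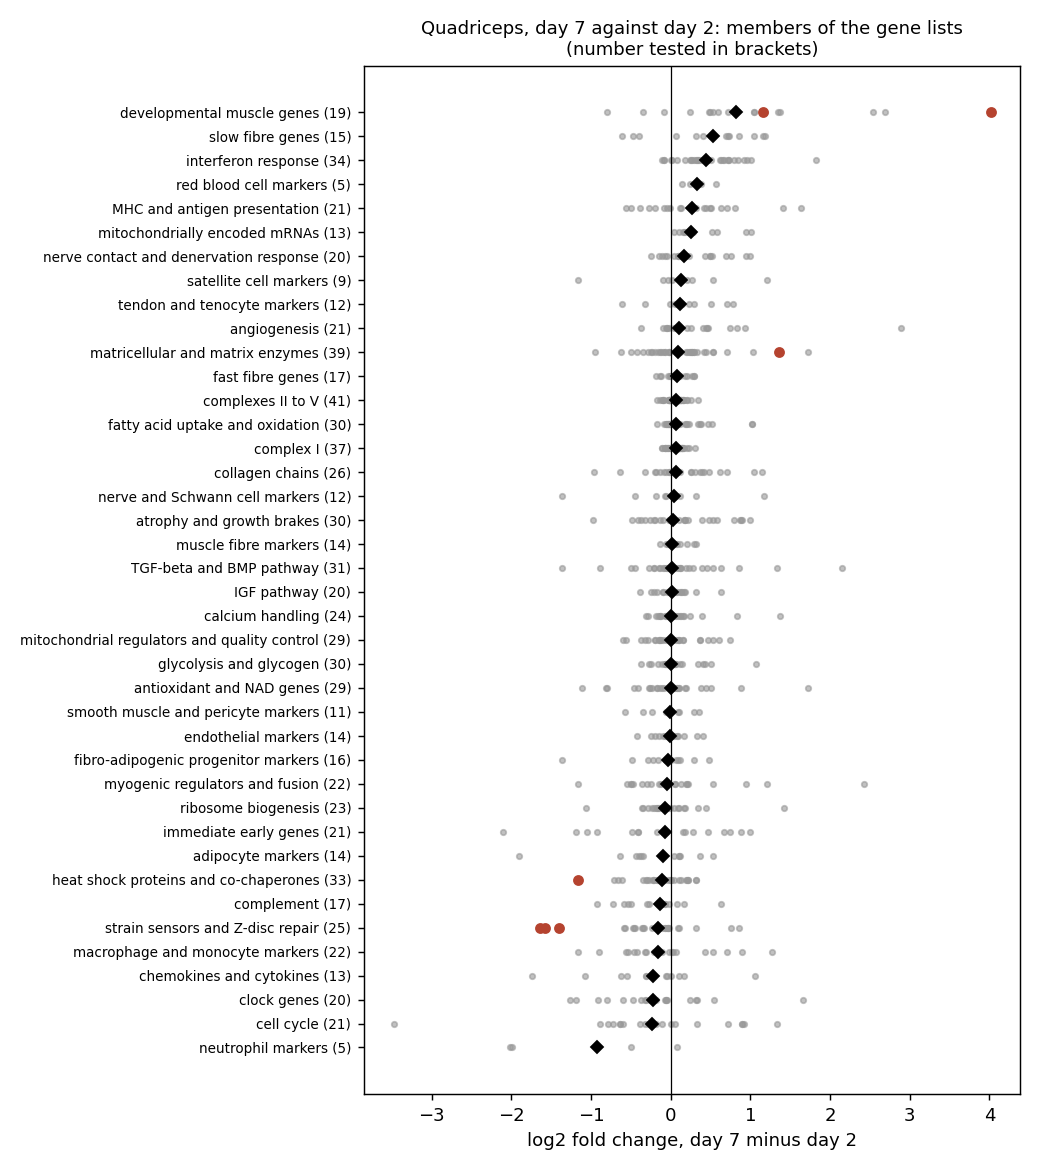
Fitted log2 fold change, day 7 minus day 2, for the tested members of each gene list with 5 or more of them. Grey points are genes, red points called genes and diamonds the list's median. The developmental (0.82), slow fibre (0.53) and interferon (0.44) lists have the highest medians, and called genes stand in 4 lists. Some lists, such as the first 2 of these, share members.

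The 3 predicted models rose together and were named after their values were seen. Gm10800 and Gm10801 lie near each other on chromosome 2 (chr2:98666547-98667301 and chr2:98662237-98664083) and Gm21738 lies on chromosome 14 (chr14:19415857-19418930). From 21.7 to 38.4% of the 25-base words of each model occurred in another of the 3, so their reads may not be told apart. Gm10800 was at 500, 651 and 707 CPM at day 2 and 3035, 3102 and 1317 CPM in mice 8, 9 and 10. Sedentary mice had 128 to 310 CPM and day 1 mice 246 to 424 CPM. The rises were 1.95 for Gm10801 (adjusted p = 0.0049) and 2.02 for Gm10800 and Gm21738 (0.0157 each). Here mouse 8 stood with mouse 9 and mouse 10 was lowest, unlike the order for Myh3. Gm10800 and Gm21738 lost their call without mouse 9, 14 or 15 (adjusted p = 0.0547 to 0.109), and Gm10801 without mouse 14 (0.0507). Their sum was 3824, 3948 and 1664 CPM in mice 8, 9 and 10, with 20893, 20353 and 19716 genes detected. In mice 13, 14 and 15 it was 649, 830 and 893 CPM, with 19969, 20476 and 18991 genes. Sedentary tibialis anterior had 70.4, 425 and 29.2 CPM in mice 5, 6 and 7, with 17838, 21060 and 17529 genes. Whether the rise belongs to the libraries rather than to the day was not tested. The uncharacterised 2310022A10Rik, also named after its values were seen, went from 136, 116 and 132 CPM to 78.8, 89.5 and 85.6 CPM (log2 -0.59 ± 0.10, adjusted p = 0.0243), below the sedentary 109 to 120 CPM. It lost its call without mouse 8, 9, 10, 14 or 15 (adjusted p = 0.0507 to 0.121) and with only the 2 groups in the fit (0.162).

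The tibialis anterior, an ankle flexor, showed where the quadriceps differed. In it 9 genes rose and 10 fell from day 2 to day 7 among 12692 tested (0.0709% and 0.0788%, together 0.15%). The change differed between the muscles for 2 of 13819 genes (0.0145%), Myh1 and Tnfaip8l1, both toward the quadriceps. With the animal as a block Tnfaip8l1 no longer passed (edgeR, adjusted p = 0.283). No gene differed toward the tibialis anterior in the main edgeR fit (24 libraries, no block), with 753 genes in either direction at an unadjusted p under 0.05. Toward it 1 differed by DESeq2. By edgeR 2 did with the animal as a block, 1 with only the 4 groups and 9 with no filter. Those genes are not named here.

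Myh1 encodes the fast IIx myosin. In quadriceps it was at 4580, 5114 and 4010 CPM at day 2 and 4470, 5763 and 6513 CPM at day 7, an overlap (log2 0.29 ± 0.10, adjusted p = 0.383). In tibialis anterior it fell from 7954, 9513 and 8525 CPM to 6109, 5831 and 6480 CPM (log2 -0.47 ± 0.07, adjusted p = 0.0156). The difference was 0.76 ± 0.13 (adjusted p = 0.026). It was not called without quadriceps mouse 9, 10 or 15, without tibialis mouse 8, 9, 14 or 15, or with only the 4 groups in the fit (0.65 to 0.80, adjusted p = 0.0643 to 0.227).

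H19 was the next by p. In tibialis anterior it stayed at 52.7 to 84.7 CPM and then 56.3 to 61.8 CPM (log2 -0.14 ± 0.14). The difference of 1.30 ± 0.26 did not pass (adjusted p = 0.202), passed by DESeq2 (0.00585) and passed without quadriceps mouse 8 (1.53, adjusted p = 0.00592). For the other called genes no difference was shown. Myh3 was at 0.375, 0.49 and 1.75 CPM and then 4.01, 3.06 and 3.61 CPM in tibialis anterior, higher in each mouse but not called (log2 2.08 ± 0.75, adjusted p = 0.415), with a difference of 1.92 ± 0.97. Cryab went from 529, 476 and 611 CPM to 280, 327 and 242 CPM (log2 -0.90 ± 0.22, adjusted p = 0.166, difference -0.26 ± 0.29). Csrp3 had -1.69 ± 0.44 and Mustn1 -1.32 ± 0.40 there, with differences of 0.28 ± 0.55 and -0.26 ± 0.54. Those of Uchl1 (1.21 ± 0.72), Cilp (0.82 ± 0.35) and Ankrd1 (-0.97 ± 0.75) did not pass either (adjusted p = 0.902 to 0.956).

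Lists of the tibialis anterior had medians of -0.21 for strain sensors, -0.02 for heat shock genes, 0.01 for developmental and for slow fibre genes, and 0.29 for mitochondrially encoded mRNAs. Those of the quadriceps were -0.16, -0.11, 0.82, 0.53 and 0.26. The difference between these medians was not tested. Some genes called in tibialis anterior moved the same way in quadriceps, where the main fit did not call them. Mrln (log2 0.898 in tibialis anterior, adjusted p = 0.0447), Myl1 (0.32, 0.0379), Pvalb (0.418, 0.0168) and Pdk4 were higher in both. Per3 (-0.875, 0.0407), Fhl1 (-1.02, 0.00875) and Mybph (-2.11, 0.0361) were lower in both. Their differences between muscles did not pass (adjusted p = 0.807 to 0.994). Others called there included Myh1, of opposite sign in quadriceps, Nmrk2, a kinase of NAD synthesis, and Car3, carbonic anhydrase 3. In quadriceps Nmrk2 was already at 710, 917 and 817 CPM at day 2 and at 929, 973 and 854 CPM at day 7 (log2 0.18 ± 0.23). In tibialis anterior it rose from 429 to 453 CPM to 822 to 1132 CPM (log2 1.23 ± 0.19, adjusted p = 0.0156). The difference was -1.04 ± 0.34 (adjusted p = 0.785). Car3 overlapped between the days in quadriceps, at 986 to 1346 and 1093 to 1469 CPM (log2 0.01 ± 0.11), below the sedentary 1764 to 2066 CPM at both days. In tibialis anterior it fell (log2 -0.53 ± 0.09, adjusted p = 0.0265), with a difference of 0.54 ± 0.16 (adjusted p = 0.747).

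**Figure D5:**
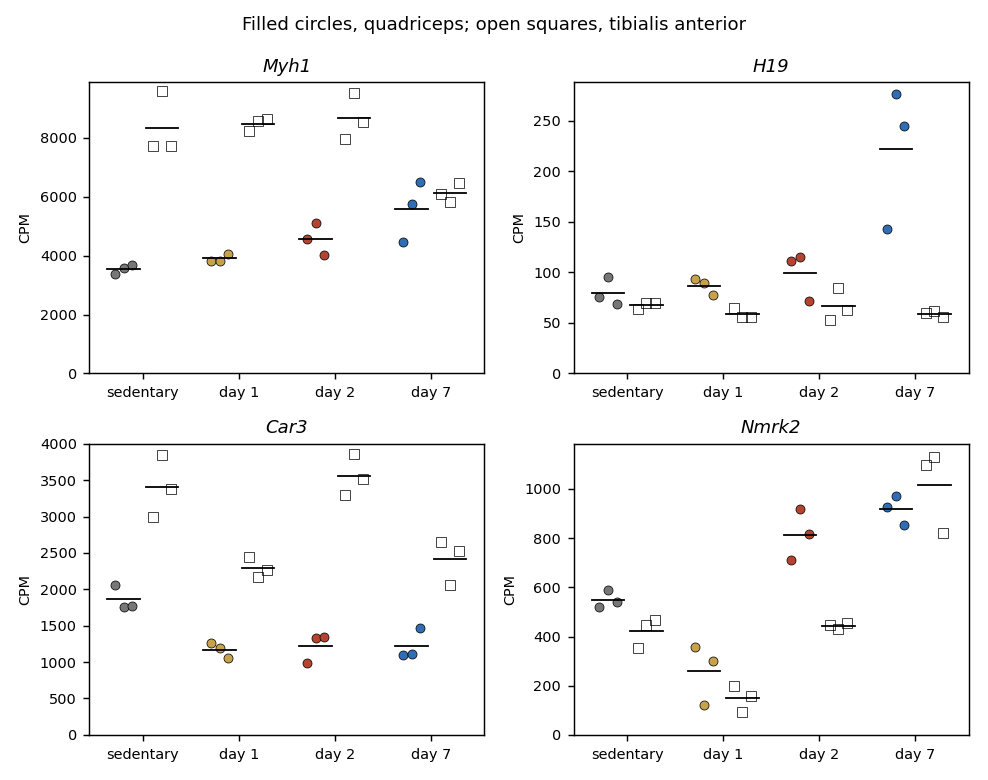
Levels in CPM (linear axes from 0) of Myh1, H19, Car3 and Nmrk2 in sedentary mice and at day 1, day 2 and day 7. Filled circles are quadriceps and open squares tibialis anterior of single mice, and bars are means of 3. The muscles are far apart for Myh1 at day 2 and close at day 7, and H19 has its highest values in quadriceps at day 7.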

How the data were processed

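The authors deposited raw counts of 55011 genes in 61 libraries. According to the submitters' processing notes, reads were aligned to mm10 with STAR 2.7.3a and counted with featureCounts, version not given. Library input was 2 ng of RNA from frozen muscle, per the labels' protocols. Not given in the sources used here are annotation, strand and the treatment of reads matching several genes, so genes with close copies (myosins, predicted models) and overlapping or antisense genes are uncertain. Each column matched 1 labelled library, and 52936 symbols matched GENCODE vM21, which gave lengths and coordinates.

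The 12 wild-type quadriceps libraries were fitted together with edgeR 4.0.16 in R 4.3.3 (TMM, filterByExpr with a minimum count of 10 and total of 15, group means, quasi-likelihood F test). The tibialis anterior was fitted the same way, and all 24 libraries for the difference between muscles. Every adjusted p is edgeR's, Benjamini-Hochberg over all genes tested, unless DESeq2 (1.42.0) is named. SE is the absolute log2 fold change over the square root of F. Excess shares come from CPM means. Lists of genes are described by counts and medians, with no test of a list.

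The comparison, lists and tests were chosen with earlier results of these data known. Named were called genes of at least 5 CPM without overlap (up to 12 a direction), up to 4 called members of a list or else its 2 of smallest p, 28 genes chosen by name, and for the difference between muscles the 8 of smallest p. Other members were named after their values were seen, and some genes are not reported here. Alternatives were DESeq2, its size factors, no filter, a minimum count of 20, only the compared groups, removal of a length and GC trend, each library left out, and an animal block between muscles. On simulated counts of 12649 genes for the quadriceps, the test found 49 of 96 genes with a simulated log2 change of 1 and 74 of 96 with one of 2, with 5 false calls. Those counts were drawn for each gene on its own from the fitted spread, with no shift shared by the genes of a library. The rates may therefore be too favourable for the real libraries.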

Additional observations from a re-analysis of the deposited data

Results flagged for a closer look

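Both genes whose change from day 2 to day 7 differed between quadriceps and tibialis anterior in the main edgeR fit are given here. Myh1 differed by 0.76 on the log2 scale, with values and libraries as given above. Tnfaip8l1 differed by 5.48 ± 0.93 (edgeR, adjusted p = 0.026). It lay below the level set for naming, at 0.59, 0.246 and 0.259 CPM at day 2 and 3.43, 3.25 and 2.51 CPM at day 7 in quadriceps. In tibialis anterior it went from 2.38, 2.7 and 4.95 CPM to 0.851, 0.278 and 0.578 CPM. Several of these libraries are under 3 counts, so the size of the fitted difference depends on edgeR's prior count. The difference lost its call without quadriceps mouse 8, 9, 10, 14 or 15, without tibialis mouse 8, 9, 10, 14 or 15, and with only the 4 groups in the fit (5.12 to 5.90, adjusted p = 0.0523 to 0.186). The muscles come from mice with the same numbers, and with the animal as a replicate block it was not called either (5.54, adjusted p = 0.283, and 5.52, 0.346 with the length and GC trend removed too).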

How the results depend on the processing

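Of 1414 values of single genes under alternatives, 1253 kept their direction and side of the threshold, 74 passed newly, 71 no longer passed and 16, all of uncalled genes, turned. The quadriceps count of 13 (8 higher, 5 lower) was 73 (39 and 34) with DESeq2, 105 (53 and 52) with no filter, 20 (13 and 7) with a minimum count of 20 and 7 (5 and 2) with only the compared groups. With no filter, adjusted p fell steeply at nearly the same fold change. Hspb7 went from 0.293 to 9.6e-12 (edgeR, log2 -0.72 in both), so a call kept with no filter adds little. Leaving out a library gave 1 to 31 calls (0 to 16 higher, 1 to 15 lower), fewest without mouse 14 and most without mouse 13. In tibialis anterior 19 (9 and 10) became 97 (50 and 47) with DESeq2, 167 (63 and 104) with no filter and 15 (3 higher) with only the compared groups, and 1 to 20 (0 to 12 higher, 0 to 8 lower) without a library. For the difference between muscles 2 (2 and 0) became 4 (1 lower) with DESeq2, 34 (25 and 9) with no filter, 1 (0 and 1) with only the compared groups and 0 to 2 without a library. No block was possible between the days, which share no animal number. Between muscles the replicate block gave 3 calls (1 higher, 2 lower), the same with the length and GC trend removed. It kept Myh1 and lost Tnfaip8l1. Libraries with 1 number correlated by -0.03 to 0.05 in their deviations from group means, 0 of 12 pairs over 0.1 and 9 of 12 best with their own number. Values that turned were those of Car3 (-0.13 to 0.090), G0s2 (-0.21 to 0.77), Ikzf2 (-0.16 to 0.34), Mcm3 (-0.95 to 0.018), Pmp22 (-0.16 to 0.013) and Myog (-0.32 to 0.18), as ranges without 1 library each, and Ikzf2 with length and GC corrected (-0.11). The cause was not tested.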
